A study of Mus musculus with 23 samples.

Results

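The comparison described here set the hippocampus of inhibitor-treated 3xTg mice (3xTg-S, n = 4 libraries) against that of vehicle-treated wild-type mice (WT-D, n = 4), and so addressed what still separated the treated model from the WT baseline. Its members are all libraries with these 2 labels, and they are 8 of the 23 libraries of the series. The 3xTg strain carries human transgenes for Swedish mutant APP and P301L mutant tau, both under the regulatory element of the mouse Thy1 gene, which is active in neurons. The WT mice were of a C57BL/6J x 129S1 hybrid background. Mice of both groups were 10 months old and had an infusion into the lateral ventricle for 28 days. 3xTg-S mice received SCDi, a blocker of the enzyme stearoyl-CoA desaturase (SCD), at 80 µM in 0.8% DMSO in artificial cerebrospinal fluid. WT-D mice received this vehicle, with the same 0.8% DMSO, without the blocker. 3xTg-S thus differed from WT-D in strain and in drug at once, and the parts of these 2 factors in a difference cannot be told apart within this comparison. The other groups served only for reference. They were 3xTg with vehicle (3xTg-D, n = 4) and WT with inhibitor (WT-S, n = 3), also of 10 months, and untreated mice of 8 months (WT-8M and 3xTg-8M, n = 4 each).

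SCD puts the double bond into saturated fatty acids to make monounsaturated ones, which are stored in triglycerides or built into membranes. In the hippocampus, pyramidal and granule neurons supply most synaptic transcripts, oligodendrocytes wrap axons in myelin, astrocytes serve lipid and ion supply, and microglia survey the tissue and clear debris. Microglia make C1q, the starter of the classical complement cascade, and both microglia and astrocytes present peptides on MHC class I and respond to interferons in ageing and in models of Alzheimer's disease (AD).

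The 8 libraries held 13678264 to 17575615 gene counts, and pairs of replicates correlated across genes with r of 0.996 to 0.998. The markers of neurons, hippocampal subfields and glia were detected, with none of them at 0 in all 8 libraries. The summed level of 11 neuron markers other than Thy1 was 7514 to 8175 counts-per-million of all gene counts (CPM) in WT-D and 7599 to 7746 CPM in 3xTg-S, a sum defined after the Thy1 levels were seen. Replicate 2 of 3xTg-S stood apart. Its 16 choroid plexus markers summed to 604 CPM against 218 to 291 CPM in the other 7 libraries, and its 8 blood markers to 213 CPM against 21.5 to 55.4 CPM. Meningeal markers ran from 384 to 735 CPM in WT-D against from 299 to 1161 CPM in 3xTg-S. The slope of log2 expression on log transcript length was 0.0508 ± 0.00885 (SD, n = 4) in WT-D and 0.0120 ± 0.0262 (n = 4) in 3xTg-S (two-sided exact permutation test, p = 0.0286, the smallest this design can give, and 0.1 after adjustment over 7 library measures). The share of reads outside genes, ambiguous, multimapping or unmapped was taken over these reads and the gene counts together. It was 25.1% ± 0.539 in WT-D and 26.5% ± 0.722 in 3xTg-S (p = 0.0286, adjusted 0.1, same exact test). Where these measures move with a result below, their part in it was not tested unless a value is given.

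A total of 15567 genes passed the filter on low counts, and 356 of them (2.29%) were called, that is, had an adjusted p under 0.05 in the edgeR quasi-likelihood test with Benjamini-Hochberg adjustment. In 3xTg-S, 185 genes (1.19%) were higher and 171 (1.1%) lower. The median log2 fold change over all genes was 0.0045, a value that the normalisation between libraries centres by design. Called genes changed by a median of 0.68 on the log2 scale, in either direction, and 116 of them by more than 2-fold, 57 higher and 59 lower. The groups did not overlap in 348 of the 356 called genes, and in 10.1% of all genes tested. Protein-coding genes made up 173 of the higher and 132 of the lower calls. Processed copies and other pseudogenes made up 2 of the higher and 19 of the lower calls, 5.90% of all calls against 2.16% of genes tested, and reads of such copies can be shared with their parent genes. At the unadjusted p under 0.01 that the study used, 1026 genes passed, 557 higher and 469 lower. The count rested on single libraries in part: it was 155 without 3xTg-S replicate 1 and 226 without replicate 4. It was 291 without 3xTg-S replicate 2, the library with choroid plexus and blood transcripts.

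**Figure D1:**
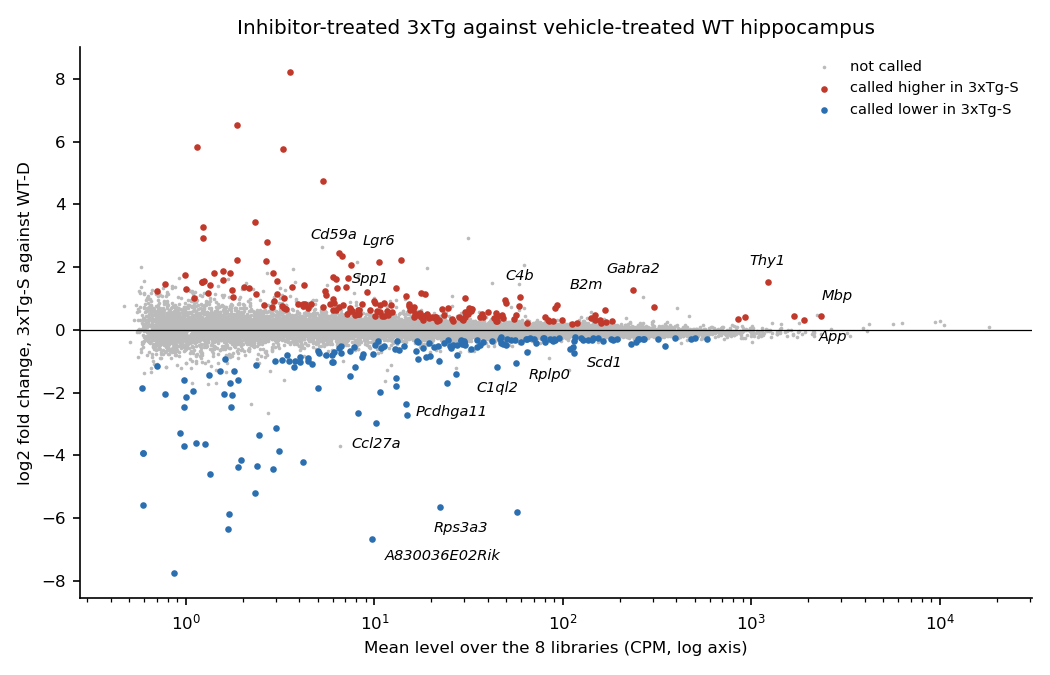
Each point is 1 of the 15567 genes tested, with its mean level over the 8 libraries in CPM on a log axis and its log2 fold change in 3xTg-S against WT-D. Red points are the 185 genes called higher, blue points the 171 called lower and grey points the rest. The largest changes sit among genes of low level, and the named immune and myelin genes sit between 0.3 and 2.4 on the log2 scale.

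Loci tied to the transgenes were read as a check of the strain labels. Thy1, a neuronal surface protein whose regulatory element drives the transgenes, held 588, 627, 615 and 644 CPM in the 4 WT-D libraries and 1901, 2009, 1323 and 2054 CPM in the 4 3xTg-S libraries. All 3xTg-S libraries were above all WT-D libraries, and the log2 fold change was 1.54 ± 0.11 (SE), at an adjusted p of 4.82e-06. App, the amyloid precursor, held 1698, 1716, 1623 and 1701 CPM in WT-D against 2200, 2018, 1926 and 2368 CPM in 3xTg-S, again with no overlap (log2 fold change 0.32 ± 0.07, adjusted p = 0.0345). Mapt, the tau gene, did not pass the test, with 517 ± 32.1 CPM in WT-D against 555 ± 18.8 CPM in 3xTg-S (SD, n = 4 each, adjusted p = 0.416). Counts at App and Mapt come from reads aligned to the mouse genome, and the share of human transgene reads that they hold is not known.

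Scd1, one of the genes of the drug target, held 150, 169, 145 and 162 CPM in WT-D against 132, 132, 123 and 138 CPM in 3xTg-S. The groups did not overlap, and the log2 fold change was -0.27 ± 0.06 (adjusted p = 0.0265). Without 3xTg-S replicate 2 the adjusted p was 0.051. Scd1 was also lower in untreated 3xTg-8M than in WT-8M mice, with no drug in either group (135 ± 13.4 CPM and 172 ± 7.14 CPM, n = 4 each), by -0.35 ± 0.07 on the log2 scale (adjusted p = 0.0208). Scd2, the main desaturase gene of the brain, held 1410, 1490, 1370 and 1483 CPM in WT-D against 1371, 1376, 1405 and 1406 CPM in 3xTg-S, which overlap (log2 fold change -0.06 ± 0.05, adjusted p = 0.583). Scd1 was the only one of 20 tested genes of fatty acid synthesis and desaturation to be called, and the median of that list was -0.03 on the log2 scale. Transcript level says nothing of how far the enzyme itself was inhibited.

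The 42 gene lists examined differed in how many of their members were called. Calls were all in the higher direction among the genes of microglia, complement, MHC class I, the interferon response and myelin, and all in the lower direction among the genes of synaptic vesicle release and voltage-gated ion channels. No list was tested as a whole, so these are counts beside the background of 1.19% called higher and 1.1% called lower.

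**Figure D2:**
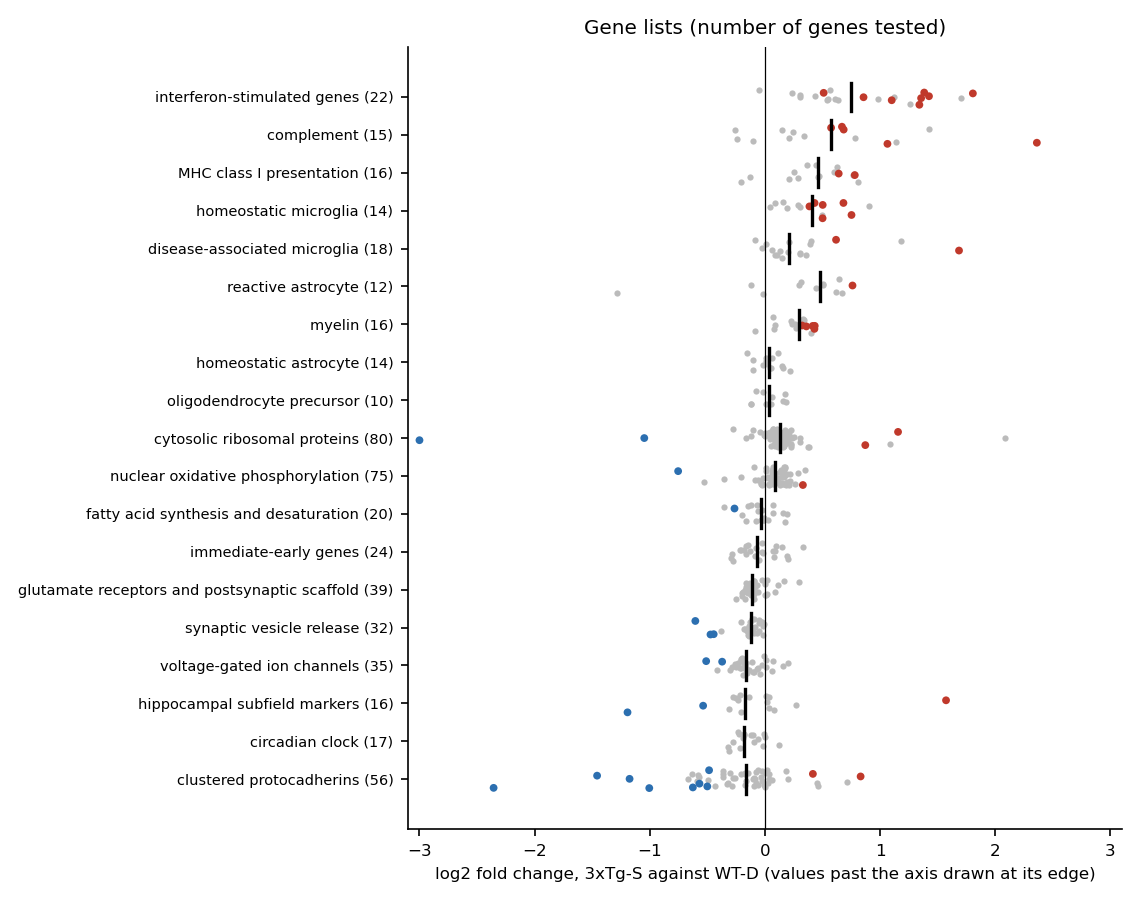
Each point is 1 tested gene of a list, placed by its log2 fold change in 3xTg-S against WT-D. Red and blue points are called higher and lower, grey points are not called, and black bars are list medians. The medians of the interferon, complement and MHC class I lists are 0.75, 0.57 and 0.46, and those of the vesicle release and channel lists are -0.12 and -0.17.

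Some microglial genes were called higher in 3xTg-S. Of 14 homeostatic microglia genes, 6 were called higher and none lower, all 14 had a positive log2 fold change, and the median was 0.41. Tmem119, a membrane protein that marks resident microglia, held 15.36, 16.31, 14.74 and 16 CPM in WT-D against 20.98, 19.11, 26.76 and 22.44 CPM in 3xTg-S, with no overlap (log2 fold change 0.50 ± 0.10, adjusted p = 0.0235). The ADP receptor P2ry13 (0.50 ± 0.11), the lectin Siglech (0.43 ± 0.09), the P-selectin ligand Selplg (0.68 ± 0.16) and the secreted protein Olfml3 (0.75 ± 0.18) were also called, with adjusted p-values of 0.0317 to 0.0458. The receptors P2ry12 and Cx3cr1 were not called, at 0.19 and 0.15 on the log2 scale. The summed level of the 14 genes was 391.9 to 476.3 CPM in WT-D against 512.2 to 609.2 CPM in 3xTg-S, and it was 415 to 622 CPM in 3xTg-D and 416 to 449 CPM in WT-S. In whole tissue, more cells of a type and more RNA per cell cannot be told apart. Without 3xTg-S replicate 2, 5 of the 14 were called, and 4 with the trend on length and GC content removed.

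Of 18 tested genes linked to disease-associated microglia, 2 were called, both higher, and the list median was 0.21. Spp1, the secreted matrix protein osteopontin, held 2.67, 3.02, 2.43 and 3.18 CPM in WT-D against 11.5, 9.75, 7.24 and 8.25 CPM in 3xTg-S (log2 fold change 1.68 ± 0.16, adjusted p = 5.93e-05). Its level was 3.83 to 20.95 CPM in 3xTg-D and 3.34 to 11.6 CPM in WT-S, so the WT-D libraries were the lowest of the 15. Tyrobp, the adaptor through which TREM2 signals, held 8.09 ± 1.51 CPM in WT-D against 12.6 ± 1.06 CPM in 3xTg-S (0.62 ± 0.13, adjusted p = 0.0298). Trem2 itself (0.31, adjusted p = 0.237), the lectin Clec7a (1.18, adjusted p = 0.227) and the lysosomal marker Cd68 (0.31, adjusted p = 0.302) were not called.

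Complement genes gave 5 calls among 15 tested, all higher, with a median of 0.57. The 3 chains of C1q, which opens the classical cascade, moved alike. C1qa held 23.7, 27.1, 23.2 and 24.9 CPM in WT-D against 35.8, 38.1, 46.7 and 40.0 CPM in 3xTg-S (log2 fold change 0.68 ± 0.09, adjusted p = 0.00116). C1qb changed by 0.67 ± 0.09 and C1qc by 0.57 ± 0.10, with no overlap between the groups in any of the 3 genes. C1qa held 29.8 to 42.1 CPM in 3xTg-D, which reaches into the 3xTg-S range, and 28.0 to 31.2 CPM in WT-S, which lies above the WT-D range. C4b, the next component of the cascade and a gene linked to AD risk, held 34.1, 38.4, 30.9 and 48.6 CPM in WT-D against 76.8, 54.3, 108 and 81.6 CPM in 3xTg-S (1.06 ± 0.18, adjusted p = 0.00757). All 4 treated libraries were above all WT-D libraries, and replicate 2 was the nearest to them. Cd59a, an inhibitor of the terminal pore, held 3.24, 2.48, 0.987 and 1.87 CPM in WT-D against 11.0, 14.1, 9.94 and 10.1 CPM in 3xTg-S (2.36 ± 0.24, adjusted p = 0.000111). Central C3 was not called, at 1.42 with an adjusted p of 0.0777. All 5 calls remained without 3xTg-S replicate 2. The complement list was not counted without replicate 1 or 4, where the fits over all genes gave 155 and 226 calls.

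MHC class I genes gave 2 calls among 16 tested, both higher, with a median of 0.46. B2m, the light chain shared by class I molecules, held 67.3, 66.6, 65.2 and 74.0 CPM in WT-D against 118, 112, 106 and 138 CPM in 3xTg-S. The groups were far apart, with a log2 fold change of 0.78 ± 0.08 (adjusted p = 8.51e-05). B2m held 73.6 to 175 CPM in 3xTg-D and 83.1 to 92.3 CPM in WT-S. The heavy chain H2-D1 held 26.4, 24.4, 21.3 and 29.5 CPM in WT-D against 39.6, 31.9, 38.1 and 50.4 CPM in 3xTg-S (0.64 ± 0.13, adjusted p = 0.0236). H2-K1 (0.37), H2-T23 (0.81) and the immunoproteasome subunits Psmb8 (0.60) and Psmb9 (0.77) were not called. Heavy chain genes are near-identical in sequence and can share reads, so their single values are uncertain.

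Interferon-stimulated genes gave the most calls of the lists for glia and immunity, 8 of 22 tested, all higher, and the median was 0.75. Ifit3, an antiviral RNA-binding protein, held 3.98, 4.16, 3.22 and 4.23 CPM in WT-D against 13.8, 5.31, 8.63 and 13.3 CPM in 3xTg-S (log2 fold change 1.38 ± 0.26, adjusted p = 0.0141). Ifitm3, a membrane protein that blocks virus entry, held 7.45, 6.24, 6.18 and 8.53 CPM in WT-D against 14.99, 11.35, 10.38 and 15.28 CPM in 3xTg-S (0.86 ± 0.15, adjusted p = 0.00927). Replicates 1 and 4 were the highest treated libraries for both genes. The related Ifit1 (1.42 ± 0.34), the ISG15 protease Usp18 (1.81 ± 0.38), the receptor chaperone Rtp4 (1.36 ± 0.29), the virus tether Bst2 (1.34 ± 0.29), the guanylate-binding GTPase Gbp3 (1.1 ± 0.25) and the mitochondrial protein Ifi27 (0.51 ± 0.10) were also called, with adjusted p-values of 0.0174 to 0.049. Gbp3 was the one of the 8 whose groups overlapped, with 3.09 to 4.11 CPM in WT-D against 3.85 CPM in replicate 2 of 3xTg-S. The spread within 3xTg-D was wider still: Ifit3 ran from 3.46 to 17.6 CPM there, and from 5.31 to 6.60 CPM in WT-S. Without 3xTg-S replicate 2, 12 of the 24 genes of this list then tested were called. The list was not counted without replicate 1 or 4, and over all genes those fits gave 155 and 226 calls.

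The called interferon genes are known to answer to factors that bind the interferon-stimulated response element, so their promoters were read for the letters of that element, GAAANNGAAA, on both strands. The windows ran from 250 bases before to 50 after each RefSeq start (GRCm38.p6). Of the 8 called genes, 5 had a window in the RefSeq table and all 5 held the motif, as did 12 of the 18 matched genes among the 22 tested. Over all promoter windows the share was 3.44%, and over tested genes with a window 3.48%. The B2m window held it and the H2-D1 window did not. The 200 bases before the start are shown for B2m and 4 called interferon genes, picked because this stretch held the motif. Each motif is in capitals, and in Bst2 and Gbp3 2 motifs overlap. In Ifitm3, the other called gene with a window, the motifs lay 2 and 19 bases after the start. Another start of Gbp3 held no motif in its window.
Ifit1, chr19:34640689-34640888, plus strand: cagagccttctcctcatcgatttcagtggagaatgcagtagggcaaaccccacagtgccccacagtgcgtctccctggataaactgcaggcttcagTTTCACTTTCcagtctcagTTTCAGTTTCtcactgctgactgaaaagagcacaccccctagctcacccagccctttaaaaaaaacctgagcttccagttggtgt
Ifit3, chr19:34583329-34583528, plus strand: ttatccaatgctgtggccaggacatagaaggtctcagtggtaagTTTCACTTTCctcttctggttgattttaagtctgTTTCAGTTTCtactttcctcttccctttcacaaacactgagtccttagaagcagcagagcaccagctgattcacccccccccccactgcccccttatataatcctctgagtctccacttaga
Bst2, chr8:71537473-71537672, minus strand: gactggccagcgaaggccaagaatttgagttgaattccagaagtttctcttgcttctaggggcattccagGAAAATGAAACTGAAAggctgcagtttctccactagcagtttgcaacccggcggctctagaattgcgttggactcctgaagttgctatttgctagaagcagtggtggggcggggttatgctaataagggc
Gbp3, chr3:142559844-142560043, plus strand: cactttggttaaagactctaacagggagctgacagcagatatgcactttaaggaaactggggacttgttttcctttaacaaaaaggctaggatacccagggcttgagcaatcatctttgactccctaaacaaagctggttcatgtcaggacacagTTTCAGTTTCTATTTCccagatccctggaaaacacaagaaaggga
B2m, chr2:122147487-122147686, plus strand: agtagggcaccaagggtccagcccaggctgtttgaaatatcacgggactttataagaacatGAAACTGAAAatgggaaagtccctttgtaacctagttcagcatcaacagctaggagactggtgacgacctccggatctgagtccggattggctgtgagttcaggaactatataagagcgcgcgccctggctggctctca
In Ifit1 and Ifit3 a pair of motifs lies 85 and 104, and 122 and 156, bases before the start, and in B2m 1 motif lies 139 bases before it. A match of letters is a description and not evidence that a factor bound there.

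Of 16 myelin genes tested, 5 were called higher and none lower, 15 had a positive log2 fold change, and the median was 0.30. Mbp, which seals the cytoplasmic faces of the sheath, held 1823, 2331, 1681 and 2093 CPM in WT-D against 2635, 2987, 2526 and 2634 CPM in 3xTg-S, with no overlap (log2 fold change 0.43 ± 0.09, adjusted p = 0.0283). The cytoskeletal protein Ermn (0.32 ± 0.06), the lipid hydroxylase Fa2h (0.41 ± 0.08) and the myelin protein Mobp (0.36 ± 0.09) were also called. In 3xTg-D, Mbp ran from 1641 to 2481 CPM, and in WT-S from 1724 to 2361 CPM. Without 3xTg-S replicate 2, whose Mbp was the highest of the 8, 2 genes of the list were called, and Mbp was not (adjusted p = 0.0586). No gene of the oligodendrocyte precursor list was called among 10 tested.

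Among astrocyte genes, 1 of 12 reactive markers was called. Vim, an intermediate filament that reactive astrocytes also make, held 42.0, 43.1, 34.9 and 53.1 CPM in WT-D against 81.7, 70.3, 77.3 and 66.7 CPM in 3xTg-S (log2 fold change 0.76 ± 0.10, adjusted p = 0.0015). Vim held 54.2 to 64.5 CPM in 3xTg-D and 43.8 to 70.8 CPM in WT-S. Gfap was not called, at 0.44 with an adjusted p of 0.141, and no homeostatic astrocyte gene was called among 14. Of the most highly counted genes, the cysteine protease inhibitor Cst3 held 828, 848, 711 and 778 CPM in WT-D against 988, 1223, 1066 and 965 CPM in 3xTg-S (0.41 ± 0.08, adjusted p = 0.0202), against 733 to 975 CPM in 3xTg-D. Apod, a lipid carrier made by glia and by meningeal cells, rose from 129 ± 25.8 to 204 ± 33.3 CPM (0.65 ± 0.13, adjusted p = 0.0202). Its adjusted p was 0.059 without 3xTg-S replicate 2.

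**Figure D3:**
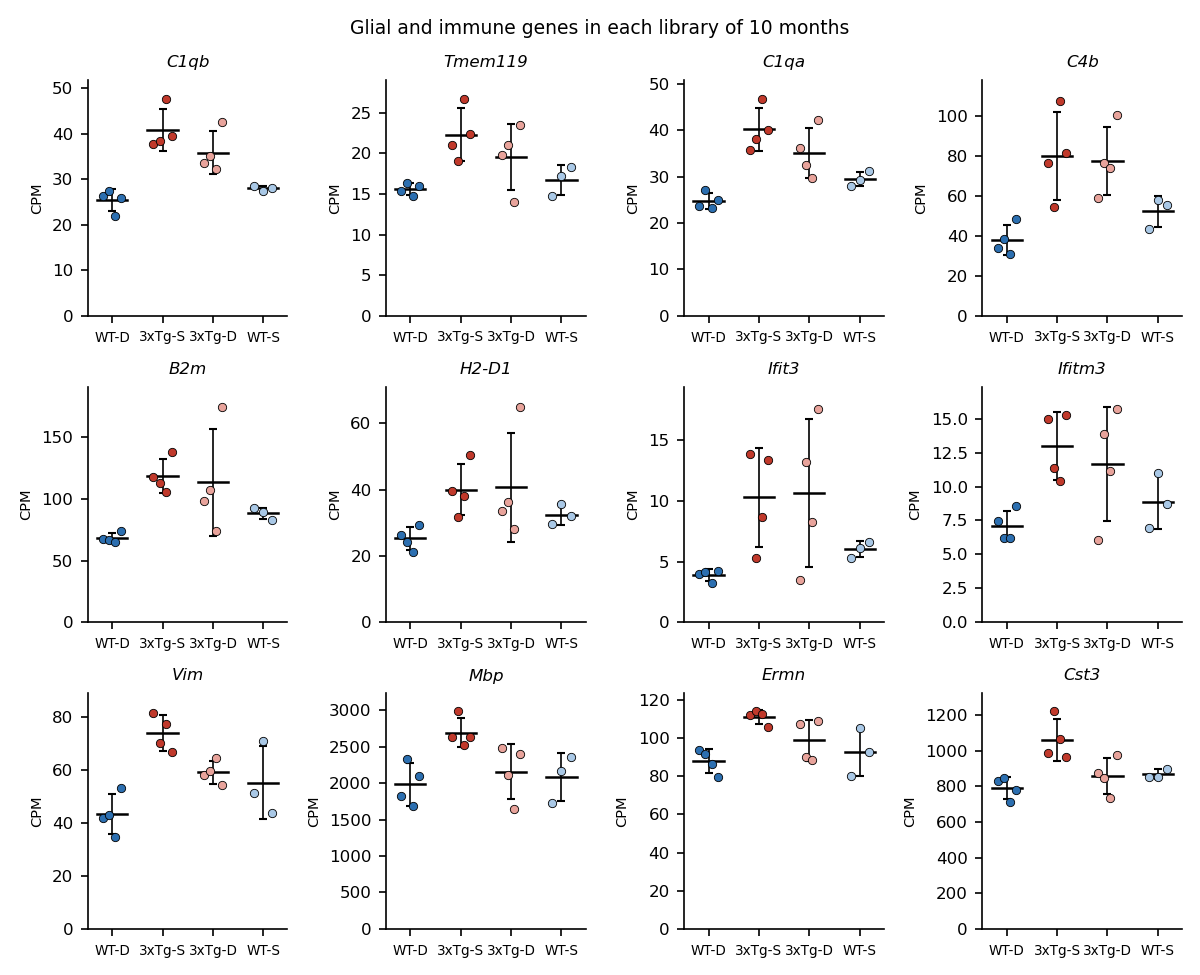
Dots are single libraries of the 4 groups of 10 months, in CPM on axes that start at 0, and bars are means with SD (n = 4, and n = 3 for WT-S). In the genes shown the 3xTg-S libraries lie above all WT-D libraries. The spread of the 3xTg-D libraries differs between genes, and for B2m it runs from 73.6 to 175 CPM.

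Of 32 genes of synaptic vesicle release, 3 were called lower and none higher, all 32 had a negative log2 fold change, and the median was -0.12. Unc13c, a vesicle priming factor, held 39.7, 40.3, 34.5 and 42.3 CPM in WT-D against 28.1, 33.4, 19.9 and 22.8 CPM in 3xTg-S (log2 fold change -0.60 ± 0.12, adjusted p = 0.0248). Syt2, a calcium sensor of fast synapses, fell by 0.45 ± 0.09 on the log2 scale, and Sv2c, a vesicle membrane protein, by 0.47 ± 0.11 (adjusted p = 0.028 and 0.0396). The abundant Snap25, Syp, Vamp2 and Slc17a7 were not called, with log2 fold changes of -0.05, -0.03, -0.05 and -0.01.

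Of 35 voltage-gated channel genes, 2 were called, both lower, and the median was -0.17. Kcnq3, a subunit of the M-current potassium channel, held 299, 248, 290 and 266 CPM in WT-D against 199, 199, 245 and 219 CPM in 3xTg-S (log2 fold change -0.37 ± 0.09, adjusted p = 0.0421). Scn4b, a sodium channel β subunit, held 35.4, 22.6, 31.8 and 28.1 CPM against 20.1, 22.4, 21.3 and 20.1 CPM (-0.51 ± 0.12, adjusted p = 0.048). The highest treated library and the lowest WT-D library of Scn4b were thus almost level. Neither was called without 3xTg-S replicate 2, whereas 2 of the 3 vesicle genes, Unc13c and Syt2, remained. The genes of these lists are long: the median transcript length was 3150 bases for the channels and 2712 bases for vesicle release, against 1523 bases over all genes tested, and 1264 bases for the genes called higher. With the trend on length and GC content removed the list medians were -0.13 and -0.11, and 2 and 3 genes were called lower.

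Of 39 glutamate receptor and postsynaptic scaffold genes, edgeR called none and DESeq2 called 2 (of 577 over all genes), with 12 at an unadjusted p under 0.05 (of 2629 over all 15567 genes) and a median of -0.12. Of 21 genes for GABA, 1 was called. Gabra2, the α2 subunit of the GABA-A receptor, held 115, 205, 123 and 98.5 CPM in WT-D against 340, 347, 323 and 325 CPM in 3xTg-S (log2 fold change 1.29 ± 0.17, adjusted p = 0.00116). It held 282 to 416 CPM in 3xTg-D and 88.6 to 111 CPM in WT-S, so the libraries of the 2 strains lay apart under either infusion. Cntnap2, an adhesion protein of the neurexin family, held 182, 184, 186 and 177 CPM in WT-D against 139, 137, 149 and 153 CPM in 3xTg-S (-0.35 ± 0.06, adjusted p = 0.00608). Reln, the matrix protein of Cajal-Retzius cells and interneurons, fell by 0.31 ± 0.07 on the log2 scale (adjusted p = 0.0333).

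Of the 5 genes of highest level among those called lower, 4 code for proteins known from neurons. Slc6a17, a transporter of synaptic vesicles, held 401, 438, 403 and 449 CPM in WT-D against 368, 334, 368 and 371 CPM in 3xTg-S (-0.24 ± 0.06, adjusted p = 0.0457). The motor Myo5a (-0.26 ± 0.06), the lipid phosphatase-related protein Plppr4 (-0.29 ± 0.05) and the peptidase-like Prepl (-0.30 ± 0.07) fell by between 0.26 and 0.30 on the log2 scale.

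Among 16 markers of hippocampal subfields, C1ql2 and Wfs1 were lower and Iyd higher. C1ql2, a synaptic organiser of dentate granule cells and their mossy fibres, held 65.8, 50.8, 52.5 and 78.6 CPM in WT-D against 28.1, 26.7, 30.2 and 24.5 CPM in 3xTg-S (log2 fold change -1.19 ± 0.12, adjusted p = 0.000141). It held 22.7 to 28.0 CPM in 3xTg-D and 68.3 to 81.0 CPM in WT-S. Wfs1, an endoplasmic reticulum protein of CA1 neurons, held 144, 126, 122 and 138 CPM in WT-D against 93.8, 91.0, 96.9 and 87.9 CPM in 3xTg-S (-0.54 ± 0.06, adjusted p = 0.000508). Iyd, a deiodinase, held 1.14, 2.75, 1.05 and 1.18 CPM against 4.81, 4.64, 4.97 and 3.85 CPM (1.57 ± 0.26, adjusted p = 0.00726), and 1 WT-S library reached 5.93 CPM. Prox1, which marks granule cells, was not called (-0.31, adjusted p = 0.164), and nor was the CA1 marker Fibcd1. The summed level of the 16 markers was 1015 to 1117 CPM in WT-D against 900.3 to 970.7 CPM in 3xTg-S.

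**Figure D4:**
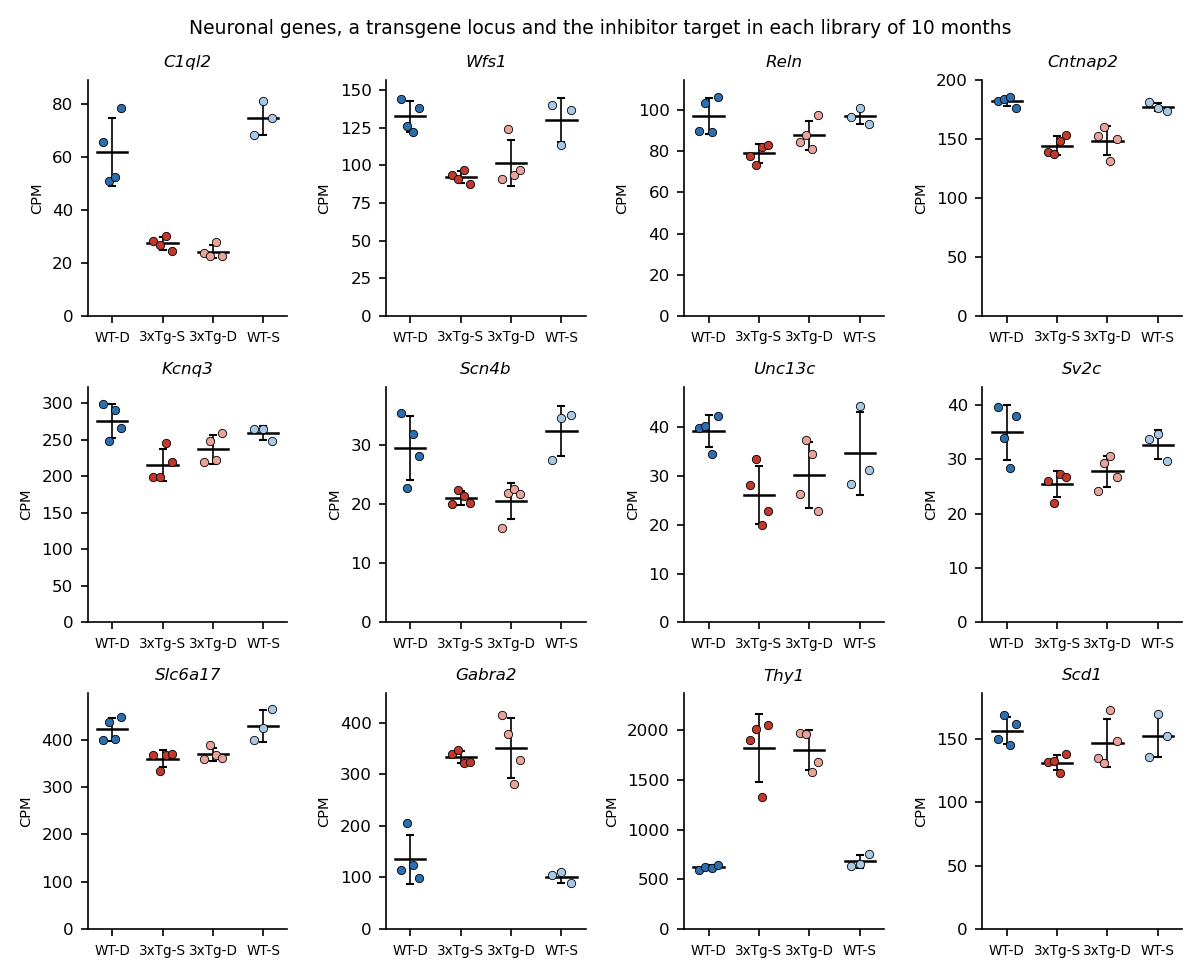
Dots are single libraries of the 4 groups of 10 months, in CPM on axes that start at 0, and bars are means with SD (n = 4, and n = 3 for WT-S). In C1ql2, Gabra2 and Thy1 the libraries fall by strain under both infusions, and in Scd1 the 3xTg-S libraries lie below WT-D at 123 to 138 CPM while 3xTg-D runs up to 173 CPM.

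Clustered protocadherins, adhesion molecules that give single neurons their surface identity, held 10 of the calls among 56 genes tested, 2 higher and 8 lower. Pcdhga11 held 25.6, 25.8, 21.7 and 24.7 CPM in WT-D against 2.84, 4.91, 6.21 and 5.47 CPM in 3xTg-S (log2 fold change -2.36 ± 0.17, adjusted p = 3.92e-06). Pcdhgb6 held 12.1, 9.86, 10.3 and 11.4 CPM against 3.95, 3.25, 4.90 and 3.99 CPM (-1.46 ± 0.14, adjusted p = 5.93e-05), and Pcdhb6 fell by 1.18 ± 0.20 on the log2 scale. Pcdha9, Pcdhb5, Pcdhb7, Pcdhb16 and Pcdhga3 were lower by 0.49 to 1.00, and neighbours in the same arrays went the other way, with Pcdhga4 at 0.83 ± 0.16 and Pcdhb9 at 0.42 ± 0.08. Pcdhga11 held 5.09 to 6.09 CPM in 3xTg-D and 21.2 to 22.6 CPM in WT-S. The genes of an array share their last exons or are close in sequence, so the split of reads between them is uncertain. Without 3xTg-S replicate 2, 4 of the 8 lower calls remained, and both higher calls.

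Ribosomal protein and respiratory chain genes gave calls in both directions, while most members had a positive log2 fold change. This held for 71 of 80 tested ribosomal genes (median 0.13) and 63 of 75 respiratory chain genes (median 0.09). With the trend on length and GC content removed, the medians were 0.07 and 0.03. Rpl29 rose from 11.4 ± 2.91 to 25.6 ± 2.05 CPM (log2 fold change 1.16 ± 0.14, adjusted p = 0.000562) and Rpl30 from 35.1 ± 10.6 to 65.1 ± 4.27 CPM (0.87 ± 0.16). Rplp0, of the large subunit stalk, fell from 75.6 ± 13.8 to 37.1 ± 4.67 CPM (-1.05 ± 0.13, adjusted p = 0.000568). Of 80 ribosomal protein genes tested 4 were called, beside 2.29% of all genes tested, and 1 of them was Rps3a3, a processed copy. Of 75 respiratory chain genes, Cox6c was higher (0.33 ± 0.08) and Cox7c lower (-0.75 ± 0.15). These families have many processed copies in the genome, so single members are uncertain. The protein disulfide isomerase Pdia6 was the 1 call among 17 tested genes of endoplasmic reticulum stress, at 0.20 ± 0.05 with an adjusted p of 0.0499.

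The largest changes among genes of at least 5 CPM without overlap were of mixed kind. Lgr6, a receptor for R-spondins in the Wnt pathway, held 4.04, 4.16, 3.36 and 3.67 CPM in WT-D against 17.3, 14.2, 21.9 and 15.7 CPM in 3xTg-S (log2 fold change 2.16 ± 0.15, adjusted p = 3.78e-06). The glycogen-binding Stbd1 (2.06 ± 0.38), the translation initiation subunit Eif3j1 (1.64 ± 0.31), the actin capping subunit Capza1 (1.63 ± 0.13) and the long non-coding AA465934 (2.22 ± 0.36) were higher as well. BC002163, a processed pseudogene, held 12.8, 1.06, 12.6 and 14.7 CPM in 3xTg-S and under 0.5 CPM in every WT-D library (4.73 ± 0.70). It also split the 3xTg-D group, with 2 libraries at 0.462 and 0.505 CPM and 2 at 13.1 and 13.4 CPM. Hbb-bt, a haemoglobin chain of red blood cells, was called (2.45 ± 0.56, adjusted p = 0.0432) with 27.5 CPM in replicate 2 of 3xTg-S and 3.46 to 7.75 CPM in the others. Without that library the log2 fold change was 1.46 (adjusted p = 0.0235). WT-D held 1.42 to 2.24 CPM. A few called genes outside the rule for naming were picked after their values were seen, and are given as levels since the WT-D side was close to 0. Cxcl13, a chemokine that draws B cells, held 0.110 ± 0.0930 CPM in WT-D and rose to 6.45 ± 4.42 CPM (SD, n = 4 each, adjusted p = 0.00167). Trim12a and Trim30d, members of a TRIM family cluster of antiviral genes on chromosome 7, rose from 0.0320 ± 0.0370 to 3.72 ± 0.444 CPM and from 0.0284 ± 0.0569 to 2.26 ± 0.399 CPM. Trim12a was also called higher in 3xTg-D against WT-S and in untreated mice of 8 months (adjusted p = 0.000101 and 0.0159). Trim30d was called higher in 3xTg-D against WT-S (adjusted p = 0.000638) and was not called at 8 months (adjusted p = 0.0802). Genes of this cluster are close in sequence and their single values are uncertain.

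In the lower direction, A830036E02Rik, a long non-coding RNA, held 28.1, 21.1, 12.2 and 15.3 CPM in WT-D against at most 0.464 CPM in 3xTg-S (log2 fold change -6.66 ± 0.43, adjusted p = 2.29e-06). The pseudogene Rps3a3 held 29.3 to 57.0 CPM in WT-D against at most 2.79 CPM in 3xTg-S (-5.65 ± 0.47). One of the 3 WT-S libraries held 0.154 CPM of it and the other two 54.9 and 65.3 CPM. The chemokine Ccl27a held 17.3, 18.5, 18.1 and 18.2 CPM in WT-D against 2.34, 3.12, 1.90 and 1.96 CPM in 3xTg-S (-2.96 ± 0.13, adjusted p = 7.83e-08). The phospholipase Pla2g4e (-2.71 ± 0.20), the replication helicase subunit Mcm6 (-1.98 ± 0.12), the collagen Col11a1 (-1.70 ± 0.21) and Erich5 (-1.85 ± 0.17) followed. So did the processed pseudogene Gm4202 (-2.64 ± 0.25), whose reads can be shared with a parent gene, and the non-coding Gm1976 (-1.78 ± 0.11). Among genes of high count, the long non-coding 2900097C17Rik fell from 406 ± 9.48 to 286 ± 13.99 CPM (-0.52 ± 0.06).

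Lipid and activity programmes held few or no calls. Over all genes tested 2.29% were called, so a short list with no called member is near that background. The 20 lists in which edgeR called no gene held 301 tested genes, of which 66 had an unadjusted p under 0.05, 35 of them higher, and DESeq2 called 8. Over all 15567 genes tested, 2629 had such a p, and DESeq2 called 577. They included genes of triglyceride and lipid droplet metabolism (22 tested, 3 at an unadjusted p under 0.05), fatty acid oxidation (21 and 3), cholesterol synthesis (23 and 5), immediate-early genes (24 and 1), spine actin regulators (21 and 5), neurogenesis (7 and 0) and secretases with amyloid degradation (16 and 3). Of 17 circadian clock genes, 8 were at an unadjusted p under 0.05, with a list median of -0.18. Apoe was not called, at 0.20 with an adjusted p of 0.168. These counts do not show that the genes were alike in the groups.

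The calls were unevenly placed along the genome. On the autosomes and X, the share of tested genes that were called ran from 0.562% on X to 4.60% on chromosome 18 and 4.41% on chromosome 13. In windows of 10 Mb (gene starts, GRCm38), the 5 with most calls were examined, and the genes named for them were picked after their values were seen. On chromosome 13 from 60 to 70 Mb, 14 of 71 tested genes were called, 4 higher and 10 lower. They included the zinc finger genes Zfp429 (-3.63), Zfp874a (-0.92), Zfp738 (-0.54), Zfp457 (1.89) and Zfp58 (0.83), which belong to a cluster of closely related genes and can share reads. On chromosome 18 from 30 to 40 Mb, 14 of 153 were called, and 10 of these were the protocadherins above. On chromosome 15 from 30 to 40 Mb, 9 of 50 were called, 8 of them higher, and Rpl30, Cox6c and Erich5 lie there. Chromosome 3 from 90 to 100 Mb held 9 calls of 125, among them the microglial protease Ctss (0.69). Chromosome 9 from 100 to 110 Mb held 9 calls of 137, among them the iron carrier Trf of oligodendrocytes (0.72) and Rpl29. Of the 14 called genes in the chromosome 13 window, 6 were also called in 3xTg-D against WT-S and 7 at 8 months. These counts were 5 and 8 of 14 in the chromosome 18 window and 3 and 2 of 9 on chromosome 15. They were 1 and 2 of 9 in the chromosome 3 window and 2 and 7 of 9 on chromosome 9. Over all called genes that were tested there, the shares were 30.5% in 3xTg-D against WT-S and 36.7% at 8 months. The cause of this placing was not tested.

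The called genes were then looked up in 2 comparisons of the strains that share no library with this one. In 3xTg-D against WT-S, where the drug is on the WT side, 205 of 15594 genes (1.31%) were called. Of the 348 genes tested in both, 326 (93.7%) had the same sign there, against 52.7% over all genes tested in both, and 106 were called there, all with the same sign. In untreated mice of 8 months, 399 of 15483 genes (2.58%) were called, and 331 of 338 genes (97.9%) had the same sign, against 67.3% over all genes, with 124 called there. A set of 67 genes, 24 higher and 43 lower, was called with the same sign in all 3 comparisons, with a median size of 1.35 on the log2 scale. Thy1, Gabra2, C1ql2, Lgr6, Stbd1, Cd59a, Ccl27a, Mcm6, Rplp0, Rpl29, Pcdhga11 and Pcdhgb6 were among them. Another 193 genes, 119 higher and 74 lower, were called in neither of the other comparisons, with a median size of 0.54. They include some genes that were not tested there.

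**Figure D5:**
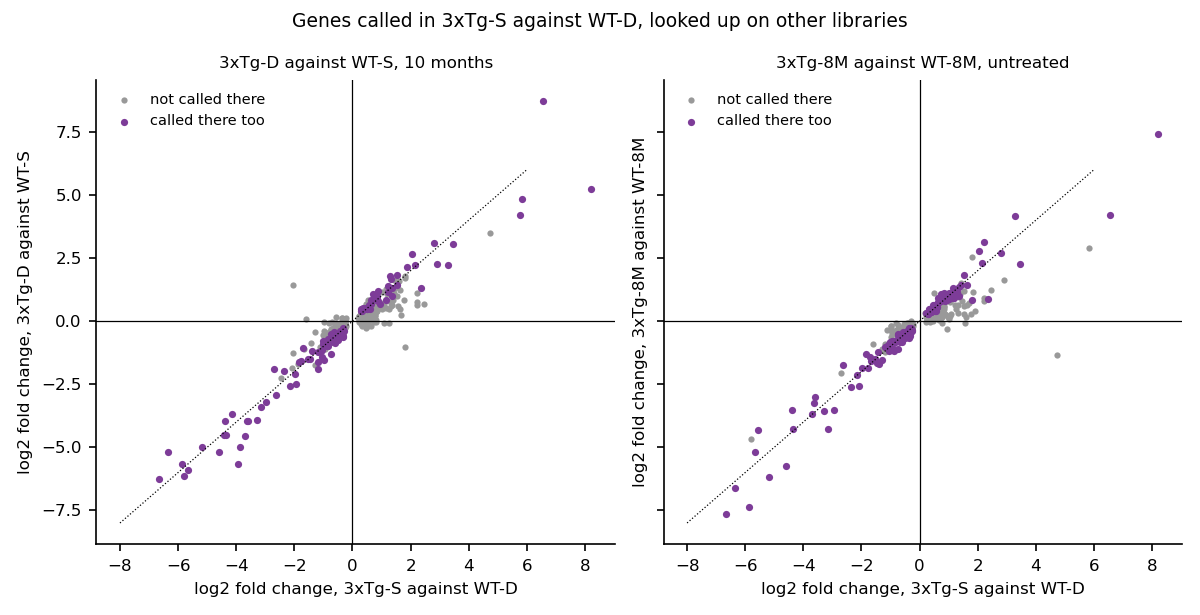
Each point is a gene called in 3xTg-S against WT-D, with its log2 fold change there on the x axis and, on the y axis, its log2 fold change in 3xTg-D against WT-S (left, 348 genes) or in 3xTg-8M against WT-8M (right, 338 genes). Purple points were called there too, 106 on the left and 124 on the right, and the dotted line marks equal change. Nearly all points lie in the quadrants of equal sign, and the grey points crowd near 0.

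The immune and myelin genes lay mostly among those not called elsewhere. In 3xTg-D against WT-S, the medians of the homeostatic microglia, complement, interferon and myelin lists were 0.27, 0.19, 0.59 and 0.07 and at 8 months they were 0.22, 0.26, 0.63 and 0.00, with 0, 1, 0 and 0 calls in each of these comparisons. For MHC class I the medians were 0.34 and 0.29, with 1 and 0 calls. For disease-associated microglia they were -0.07 and 0.04, with no call in 3xTg-D against WT-S and 1 higher and 1 lower at 8 months. Tyrobp was called higher at 8 months (0.57, adjusted p = 0.0383). C1qa changed by 0.26 ± 0.11 in 3xTg-D against WT-S, Vim by 0.10 ± 0.14 and Cst3 by -0.01 ± 0.09. Whether the 2 comparisons differ was tested over the 15 libraries of 10 months, as a test added after the values were seen. The strain terms cancel in this difference, which equals the inhibitor effect summed over both strains. No gene of 16262 passed (edgeR, smallest adjusted p = 0.29), while 2043 genes (12.6%) had an unadjusted p under 0.05, 66 of the 356 called genes among them. At this filter a difference between the comparisons was thus not shown for any gene, while 291 genes passed when no filter on low counts was used. Fxyd1, a regulator of the sodium pump that is abundant in choroid plexus and astrocytes, came nearest. It held 16.5, 15.6, 13.8 and 15.3 CPM in WT-D against 20.5, 22.8, 23.4 and 18.6 CPM in 3xTg-S (log2 fold change 0.46 ± 0.09, adjusted p = 0.0204). It held 15.1 to 17.2 CPM in 3xTg-D and 17.9 to 20.6 CPM in WT-S (-0.26 ± 0.10), and the difference of the 2 fold changes was 0.72 (unadjusted p = 3.33e-05, adjusted p = 0.29).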

How the data were processed

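Hippocampal mRNA of mice, female per the study's methods, was sequenced in 23 libraries, of which the 8 of 3xTg-S and WT-D are compared here. The deposited values are raw counts of reads per gene, which the authors made by trimming with Trimmomatic 0.35 and aligning with STAR 2.5.1b to GRCm38 with Gencode M23. The strand setting and any collapsing of molecular identifiers are not given in the sources used here, so antisense and overlapping genes cannot be told apart. The 4 lines that name no gene were left out of library sizes. The labels give each library its own animal number, and p-values measure the spread between these animals.

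Groups were fitted in pairs, as in the study, with edgeR 4.0.16 (filterByExpr, TMM, quasi-likelihood test, Benjamini-Hochberg adjustment). Genes with an adjusted p under 0.05 are called, and all adjusted p-values of genes come from this test unless DESeq2 is named. CPM are counts-per-million of the gene counts of a library, and an error after ± is a SE for log2 fold changes and a SD for CPM. The other comparisons were 3xTg-D against WT-S and 3xTg-8M against WT-8M. Transcript lengths were medians of Gencode M21 transcripts, at hand for 99.7% of genes. The fits were tested on simulated data.

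The genes named were the 10 largest changes in each direction among calls whose groups did not overlap and whose mean was 5 CPM or more, the 5 called genes of highest level in each direction, called genes of the lists, the transgene loci with Scd1 and Scd2, and calls that went the opposite way in 3xTg-D against WT-S (unadjusted p under 0.05). Members, lists and this rule were chosen with earlier results of these data known. The lists come from general knowledge, and those for lipid, immune and synapse genes follow themes that the study drew from these libraries. As alternatives, each replicate was left out, and the comparison was rerun with the likelihood ratio test of DESeq2 1.42.0, with its size factors, without a filter, in 1 fit of the 15 libraries of 10 months, at an unadjusted p under 0.01, with a block for runs of 4 animal numbers, with the length and GC trend removed and with a choroid plexus score as covariate. Results for some genes are not reported here.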

Additional observations from a re-analysis of the deposited data

Results flagged for a closer look

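Among 202 groups of 4 values from the named genes and marker sums of 3xTg-S and WT-D, 19 (9.41%) had 1 library far from the other 3, by Dixon's test at the 95% level, where chance gives about 1 in 20. Of these, 6 were in replicate 2 of 3xTg-S. It held 604 CPM of choroid plexus markers and 213 CPM of blood markers, against at most 291 and 55.4 CPM in the other treated libraries. It also held 1.06 CPM of BC002163 against 12.6 to 14.7 CPM, 0.464 CPM of A830036E02Rik against at most 0.123 CPM, 2.79 CPM of Rps3a3 against at most 0.37 CPM, and 334.0 CPM of Slc6a17 against 368 to 371 CPM.

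Replicate 3 of 3xTg-S stood apart in microglial and astrocyte genes. It was highest for C1qb at 47.5 CPM (others 37.8 to 39.4), for Selplg at 34.7 CPM (25.4 to 26.7) and for the sum of astrocyte markers at 8470 CPM (7366 to 7539), and lowest for Gm1976 at 4.75 CPM (6.22 to 6.37). Replicate 4 of 3xTg-S held 5.002 CPM of Bst2 against 2.47 to 2.56 CPM.

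In WT-D, replicate 1 held 1.42 CPM of Hbb-bt (others 2.12 to 2.24) and 526 CPM of cortex markers (475 to 478). Replicate 2 was high for Stbd1 at 6.98 CPM (1.25 to 1.93) and for Iyd at 2.75 CPM (1.05 to 1.18). Replicate 3 was high for AA465934 at 11.4 CPM (2.48 to 3.07) and for Rpl29 at 15.7 CPM (9.73 to 10.1). Replicate 4 held 0.498 CPM of BC002163 (0.329 to 0.341) and 301 CPM of mural cell markers (229 to 240).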

How the results depend on the processing

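The count of 356 calls was 577 with the DESeq2 likelihood ratio test (306 lower), 1135 without a filter (524 higher and 611 lower) and 1026 at an unadjusted p under 0.01 (557 higher and 469 lower). With a replicate left out it ran from 155 (without 3xTg-S replicate 1) to 341, and was 226 without 3xTg-S replicate 4. The higher calls ran from 77 (without 3xTg-S replicate 1) to 179, with 104 without 3xTg-S replicate 4 and 119 without WT-D replicate 3, and the lower calls from 78 (without 3xTg-S replicate 1) to 162. The labels share no replicate number between groups, and a replicate block for runs of 4 animal numbers gave 357 calls. Of genes tested, 3xTg-D against WT-S called 1.31%, and 2.52% with DESeq2, 3.06% without a filter and 0.686% (without 3xTg-D replicate 2) to 2.15% (without WT-S replicate 1) with a replicate left out, with 0.858% and 0.853% without 3xTg-D replicate 1 and WT-S replicate 2. At 8 months 2.58% were called, and 4.42% with DESeq2, 2.66% without a filter and 1.46% (without 3xTg-8M replicate 1) to 2.89% with a replicate left out, with 1.53% without 3xTg-8M replicate 2. Without a filter, 291 genes passed the test of the difference of the comparisons. The share of the calls in 3xTg-S against WT-D that were also called in 3xTg-D against WT-S was 29.8%, and 35.5% without a filter. With a replicate left out it was 21.9% to 51.0%, the highest without 3xTg-S replicate 1. At 8 months the share was 34.8%, and 34.7% without a filter, 32.9% with DESeq2 and 25.3% to 49.0% with a replicate left out, the highest again without 3xTg-S replicate 1. The causes were not tested.

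Of the 83 called genes among the 86 named, 34 stayed called under all 15 alternatives, and no named gene changed sign. Some of the genes of low level rest on few counts, and at this depth a miss of the threshold does not show equal expression. Other limits are single libraries with choroid plexus, blood or meningeal transcripts, the slopes on transcript length, and the shared change of strain and drug.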
